A study of Homo sapiens with 10 samples.

Results

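The genes of cholesterol and fatty acid synthesis were examined in 2 human endothelial cell lines. They are 33 genes named by symbol, from the sterol sensors and the enzymes of the mevalonate, sterol and fatty acid pathways to a pair of sterol exporters. Each was found in the count table by the Ensembl identifier that GENCODE 44 gives for its symbol, so 33 of the 60448 genes of the table are described. All 33 had enough counts to be tested, among 16310 genes tested.

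RNA-seq was performed on untreated confluent monolayers, with 5 independent biological replicates of EA.hy926 and 5 of HMEC-1, both labelled WT. EA.hy926 is a hybrid line made by fusing human umbilical vein endothelial cells with A549, an epithelial lung carcinoma line, and was grown in Advanced DMEM with 5% fetal bovine serum (FBS). HMEC-1 is a line of human dermal microvascular endothelial cells immortalized with the SV40 large T antigen, and was grown in MCDB 131 with 10% FBS, hydrocortisone at 1 µg/mL and epidermal growth factor (EGF) at 10 ng/mL. Both media also held L-glutamine, gentamicin and penicillin. Each line had its own medium and serum level, so the line and its medium cannot be told apart in any difference given here. The values are raw read counts per gene, here given as CPM, counts relative to a library size scaled by TMM, a factor that evens out libraries on the bulk of their genes. Total counts were 34846046 to 39899324 in the EA.hy926 libraries and 33391640 to 43877224 in the HMEC-1 libraries, and 3 counts corresponded to 0.0651 to 0.0904 CPM.

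Cells make cholesterol from acetyl-CoA through mevalonate, isoprenoid units, squalene and lanosterol, and make fatty acids from the same acetyl-CoA through malonyl-CoA. Both routes are switched on by the SREBP transcription factors, which sit in the endoplasmic reticulum bound to SCAP and are held there by INSIG proteins while sterols are plentiful. Sterol in excess is exported by ABCA1 and ABCG1, genes that oxysterols induce through the liver X receptors.

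The labelled cell type was checked against marker genes. Of 14 endothelial markers, 12 were over 1 CPM in EA.hy926 and 13 in HMEC-1, with a summed level of 4937 to 5640 CPM and 1766 to 1817 CPM, respectively. Of these 14, 11 (78.6%) had an adjusted p under 0.05 in the test below and were higher in EA.hy926, against 42.6% of all genes tested. In the other direction were 2 (14.3%), against 43.3% of all genes. These were EMCN (0.0104 CPM in EA.hy926, 18.4 CPM in HMEC-1) and CLDN5 (0.0724 and 1.45 CPM), both near 0 in EA.hy926. MMRN1 was the marker under 1 CPM in HMEC-1, at 0.743 CPM against 172 CPM in EA.hy926. Of 11 epithelial markers, 3 were over 1 CPM in EA.hy926 and 6 in HMEC-1. Their sum, carried by the keratins KRT7, KRT8 and KRT18, was 1275 to 1389 CPM against 429 to 491 CPM. Of the 7 tested, 4 (57.1%) had an adjusted p under 0.05 and were higher in EA.hy926, and 3 (42.9%) were lower. The 3 were KRT19 (0.132 against 3.56 CPM), CLDN7 (0.159 against 3.81 CPM) and CLDN4 (0.547 against 1.47 CPM). CDH1, ELF3, GRHL2 and ESRP1 were at or near 0 in both lines. Of 9 fibroblast and mural markers, 2 and 4 were over 1 CPM, with sums of 411 to 469 CPM and 479 to 509 CPM, DCN and LUM being at 0 in both. Behind these near-equal sums, RGS5 (430.0 against 5.05 CPM) and ACTA2 (6.26 against 0.973 CPM) were higher in EA.hy926, and COL1A1 (0.318 against 358 CPM), COL1A2 (0.0393 against 108 CPM) and PDGFRB (0.931 against 23.2 CPM) were higher in HMEC-1. These levels differed between the lines together with the results below, and their part in them was not tested. In such bulk RNA, a change of level per cell and a change in the share of cells that express a gene cannot be told apart. No library stood apart from its line.

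The mRNA level of most of these genes was lower in EA.hy926 than in HMEC-1. By edgeR's quasi-likelihood test, 26 of the 33 genes (78.8%) had an adjusted p under 0.05 and are here said to be called. Over all genes tested this share was 85.8%, and the gap between these shares was not tested. The direction of the 26 calls was unequal. 23 of the 33 (69.7%) were called lower in EA.hy926, where 43.3% of all genes tested were, and 3 (9.09%), MVK, SQLE and ABCA1, were called higher, where 42.6% of all genes were. The median log2 fold change (log2FC, EA.hy926 minus HMEC-1) of the 33 genes was -0.53, a level 1.44 times higher in HMEC-1, against a median of -0.01 over all genes tested, and 26 of 33 values lay below 0 against 50.5% of all genes. In 24 of the 33 (72.7%) the CPM ranges of the lines did not overlap, against 77.4% of all genes.

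Few of the differences were large. With a limit on size added, as the study did, that is a log2FC beyond 1 in either direction (a 2-fold difference), 5 of the 33 genes (15.2%) were called, all lower in EA.hy926, against 35.5% of all genes in either direction, 16.4% lower and 19.1% higher. These were ACAT2, HMGCS1, EBP, FADS2 and ABCG1. All genes tested include genes with few counts in 1 line, so they are an unlike background for large differences. With at least 10 counts required in every library, 3255 of all genes passed both thresholds in place of 5784. Of the 33 genes, 5 still did. The 7 genes without a call were PMVK, FDFT1, CYP51A1, HSD17B7, ACLY, FASN and FADS1. The summed level of all 33 genes in EA.hy926 was 2992 ± 101 CPM and that in HMEC-1 4070 ± 107 CPM (SD, n = 5), 1.36 times more, or 0.299% and 0.407% of normalized counts.

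**Figure D1:**
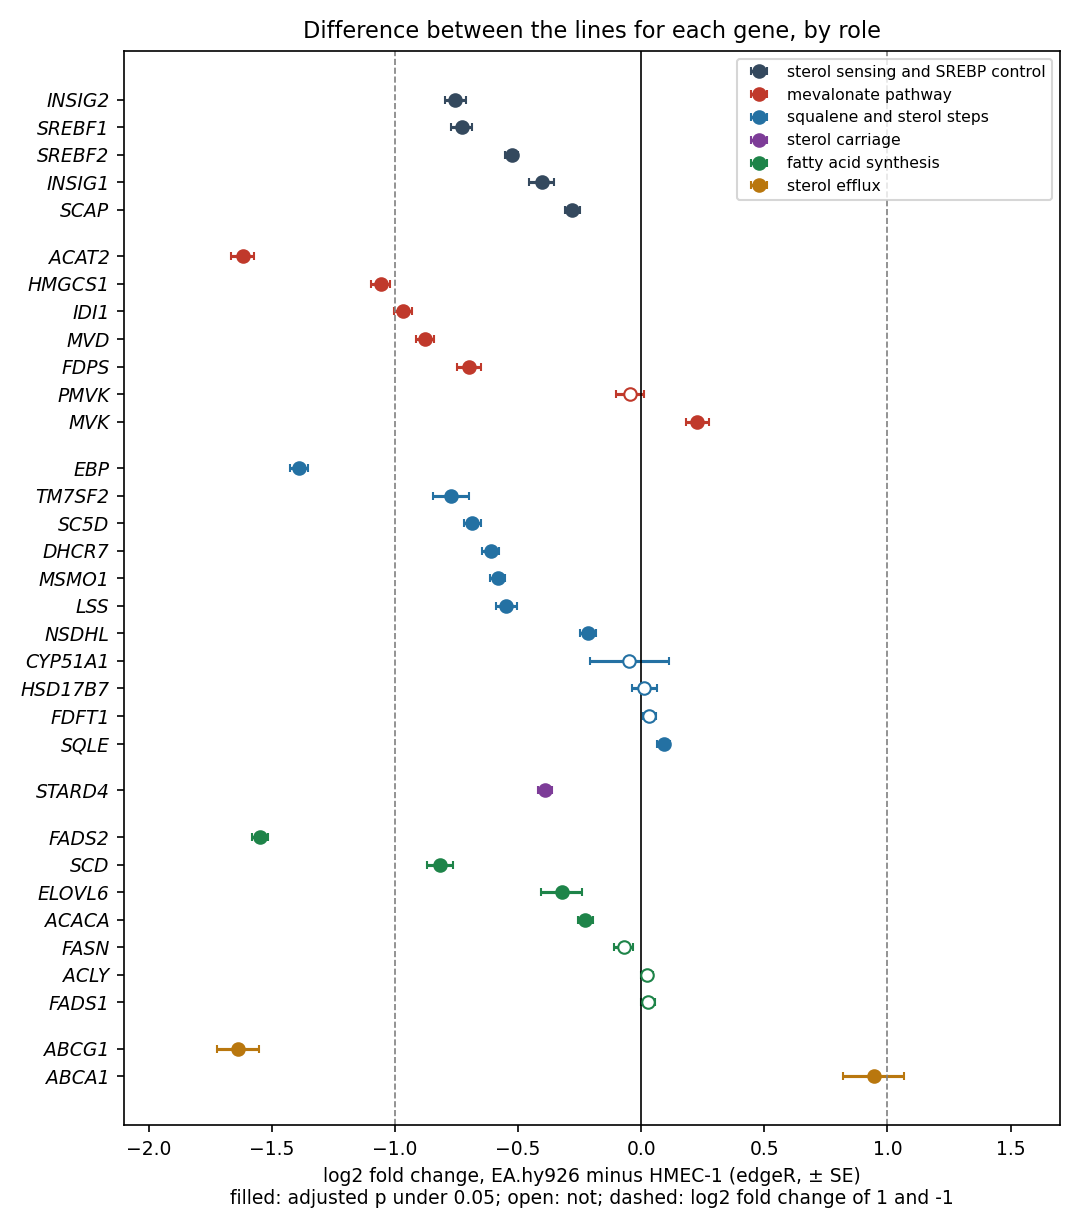
Log2 fold change of each of the 33 genes (x axis, EA.hy926 minus HMEC-1, edgeR estimate ± SE, n = 5 libraries per line), with genes grouped by role on the y axis. Filled points have an adjusted p under 0.05 and open points do not, and 23 of the 26 filled points lie left of 0; of the 3 on the right, SQLE turned to -0.04 when libraries were scaled by their totals alone.

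The scale of the libraries bears on the small differences. When libraries were scaled by their totals without TMM factors, the median log2FC of all genes tested moved by -0.13, 30 of the 33 genes were called, and 29 of them were lower in EA.hy926, where 57.3% of the calls over all genes were lower on that scale and 50.4% with TMM. Of the 33 genes, 8 changed their call on that scale, and these are given below with both values.

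The upstream DNA of the genes was read for the motifs of the factors that drive this pathway. RefSeq windows on GRCh38.p14, the 250 bases before an annotated start, were at hand for 28 of the 33 genes, in 38 windows, and not for ACAT2, FDFT1, SQLE, FASN and ABCG1. The motifs searched on both strands were a sterol regulatory element (SRE, TCACNCCAC), the CCAAT box (CCAAT) bound by NF-Y, a usual partner of SREBPs, and the E-box CACGTG. Matches of 1 motif on opposite strands were counted separately even where they shared bases. At least 1 CCAAT box was found in 19 of the 28 genes (67.9%), against 37.0% of 27305 genes, and 2 or more were found in 13 (46.4%) against 11.5%. The 27305 genes are all those with such windows and were not limited to the genes tested here. They are thus an unlike background to the 28, which were all tested. By role, a CCAAT box was found in 8 of 9 genes of the squalene and sterol steps, 5 of 6 mevalonate genes, 3 of 6 fatty acid genes, 2 of 5 sensing genes, in STARD4, and not in ABCA1. The SRE was found in 1 of 28 genes (3.57%), SREBF2, against 1.09% of all, and the E-box in 4 (14.3%; SCAP, INSIG1, SC5D and ABCA1) against 7.73%. Only these exact letters within 250 bases were searched, so an element of another form or place would be missed. A match is a description of letters and not a binding site.

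Windows of 6 genes are shown because they carry these motifs in different numbers and belong to genes that were lower (SREBF2, EBP, MSMO1, SCD) or higher (MVK, ABCA1) in EA.hy926. They are written 5′ to 3′ on the gene's strand, as the longest stretch free of annotated protein-coding exons, so that MVK runs from position -213 to -2 and its bases farther upstream are left out, with CCAAT boxes on either strand (CCAAT or ATTGG), the SRE and the E-box in capitals. Their places are chr22:41832855-41833104 (+) for SREBF2, chrX:48521558-48521798 (+) for EBP, chr4:165327419-165327666 (+) for MSMO1, chr10:100346983-100347232 (+) for SCD, chr12:109573581-109573792 (+) for MVK and chr9:104928156-104928405 (-) for ABCA1.
SREBF2: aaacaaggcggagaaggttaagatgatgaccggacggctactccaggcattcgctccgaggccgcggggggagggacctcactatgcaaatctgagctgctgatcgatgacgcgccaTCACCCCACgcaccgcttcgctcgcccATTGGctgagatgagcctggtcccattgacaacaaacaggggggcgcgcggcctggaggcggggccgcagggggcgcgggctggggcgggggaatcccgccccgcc
EBP: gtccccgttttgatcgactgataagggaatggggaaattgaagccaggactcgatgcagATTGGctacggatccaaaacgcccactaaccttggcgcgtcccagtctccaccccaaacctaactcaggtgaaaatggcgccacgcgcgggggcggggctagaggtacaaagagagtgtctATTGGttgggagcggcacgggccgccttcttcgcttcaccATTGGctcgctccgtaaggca
MSMO1: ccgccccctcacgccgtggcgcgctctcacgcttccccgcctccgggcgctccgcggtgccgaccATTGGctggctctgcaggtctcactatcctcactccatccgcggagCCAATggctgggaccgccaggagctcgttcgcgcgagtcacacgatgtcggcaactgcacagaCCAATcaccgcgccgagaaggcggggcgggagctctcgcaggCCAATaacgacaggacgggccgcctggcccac
SCD: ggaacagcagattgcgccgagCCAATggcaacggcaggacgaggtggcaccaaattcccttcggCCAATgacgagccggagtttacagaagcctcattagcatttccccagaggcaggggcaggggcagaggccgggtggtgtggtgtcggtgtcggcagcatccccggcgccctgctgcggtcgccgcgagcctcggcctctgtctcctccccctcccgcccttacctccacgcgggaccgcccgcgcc
MVK: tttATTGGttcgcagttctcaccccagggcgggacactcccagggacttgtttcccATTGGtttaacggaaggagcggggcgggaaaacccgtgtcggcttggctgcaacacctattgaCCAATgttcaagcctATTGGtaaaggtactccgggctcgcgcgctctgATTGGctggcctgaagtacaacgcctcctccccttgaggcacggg
ABCA1: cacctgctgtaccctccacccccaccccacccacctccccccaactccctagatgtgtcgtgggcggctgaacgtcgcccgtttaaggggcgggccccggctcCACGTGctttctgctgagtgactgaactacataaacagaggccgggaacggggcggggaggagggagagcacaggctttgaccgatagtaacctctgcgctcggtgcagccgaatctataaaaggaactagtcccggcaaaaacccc

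The SREBF2 window held its SRE at position -133, counted back from the start, and a CCAAT box at -106. EBP held 3 CCAAT boxes, MSMO1 4, SCD 2 and MVK 5, and ABCA1 none, with an E-box at -147. The window with 5 CCAAT boxes thus belonged to a gene called higher in EA.hy926 and the windows with 2 to 4 to genes called lower, and NSDHL, with 5 as well, was called lower.

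The levels of the genes spanned a wide range. Divided by exon length, so that genes can be compared, the highest levels in HMEC-1 were those of SCD with 116 CPM per kb, ACLY with 74.9 CPM per kb and FDFT1 with 40.4 CPM per kb. In EA.hy926 the same 3 genes led, with ACLY at 76.1, SCD at 66.1 and FDFT1 at 41.3 CPM per kb. ABCA1 was the lowest in both lines, at 0.578 CPM per kb in EA.hy926 and 0.302 CPM per kb in HMEC-1. The largest moves in rank were those of ACAT2, from rank 12 in HMEC-1 to 21 in EA.hy926, of EBP, from 5 to 13, and of FADS2, from 8 to 16.

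**Figure D2:**
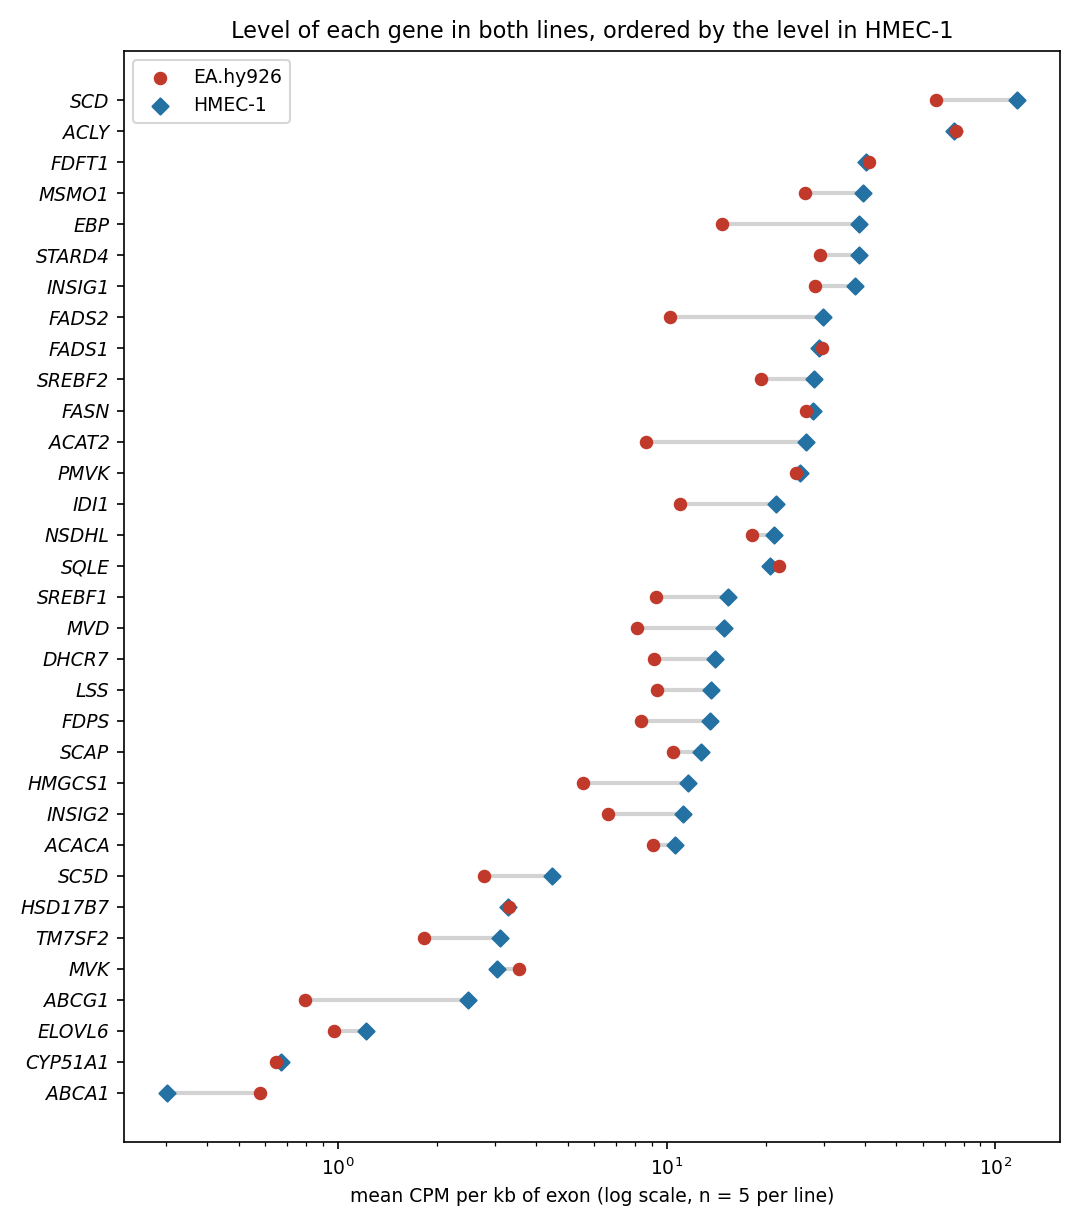
Mean level of each of the 33 genes in EA.hy926 (circles) and HMEC-1 (diamonds) in CPM per kb of exon (x axis, log scale, n = 5 libraries per line), with genes on the y axis ordered by the level in HMEC-1. SCD, at 116 CPM per kb in HMEC-1 and 66.1 in EA.hy926, is at the top and ABCA1 at the bottom, and the grey line between the symbols of a gene is longest for ABCG1, ACAT2, FADS2 and EBP.

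All 5 genes of sterol sensing and SREBP control were called lower in EA.hy926, against 43.3% of all genes tested. In all 5 the ranges of the lines did not overlap, as in 77.4% of all genes. The 5 genes summed to 428 ± 16.1 CPM in EA.hy926, while in HMEC-1 the sum was 612 ± 25.3 CPM (SD, n = 5), 1.43 times more. SREBF2 (chr22:41833105-41907306, plus strand; gene positions are those of GENCODE 44 on GRCh38) encodes SREBP-2, the factor that mainly drives cholesterol synthesis. Its level was 154, 158, 155, 160.3 and 154 CPM in EA.hy926 replicates 1 to 5 and 220.3, 217, 226, 228 and 236 CPM in HMEC-1 replicates 1 to 5. Every HMEC-1 library was above every EA.hy926 library, and the log2FC was -0.53 ± 0.026 (SE; edgeR adjusted p = 4.6e-14).

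SREBF1 (chr17:17810399-17837002, minus strand) encodes SREBP-1, whose isoforms drive mainly fatty acid synthesis. It was at 79.4, 75.7, 69.7, 83.1 and 73.8 CPM in EA.hy926 and at 128.5, 115, 128.4, 125.6 and 135 CPM in HMEC-1. The lowest HMEC-1 library was well above the highest EA.hy926 library, with a log2FC of -0.73 ± 0.043 (edgeR adjusted p = 9.2e-13). Relative to SREBF2, per length, the SREBF1 level was lower in EA.hy926, with a log2 ratio of -1.07 ± 0.086 against -0.87 ± 0.054 in HMEC-1 (SD, n = 5). The 5 EA.hy926 ratios, -1.19 to -0.98, and the 5 HMEC-1 ratios, -0.95 to -0.81, did not overlap. The difference of -0.20 had a two-sided exact permutation p of 0.0079, the smallest that 5 libraries against 5 can give (0.0079 after adjustment over the 4 ratios tested). Any ratio without overlap between the lines gives this p, and the CPM of 77.4% of all genes did not overlap. Ratios of other gene pairs were not computed.

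INSIG1, itself a target of SREBPs, and INSIG2 encode the proteins that retain SCAP in the endoplasmic reticulum. INSIG1 was at 105, 113, 90.4, 107 and 98.7 CPM in EA.hy926 and at 134, 127, 131, 136 and 153 CPM in HMEC-1. INSIG2 was at 27.6, 26.6, 25.8, 27.4 and 23.6 CPM in EA.hy926 and at 43.7, 42.5, 46.7, 42.2 and 45.7 CPM in HMEC-1. Both were lower in every EA.hy926 library than in any HMEC-1 library, INSIG2 with the larger difference (log2FC -0.75 ± 0.044 against -0.40 ± 0.051). The log2 ratio of INSIG1 to INSIG2 per length was 2.08 ± 0.11 in EA.hy926 and 1.73 ± 0.099 in HMEC-1 (SD, n = 5). With the exon lengths used, INSIG1 exceeded INSIG2 by 4.24 times and 3.33 times. This difference, 0.35, held in all libraries without overlap (two-sided exact permutation p = 0.0079, also 0.0079 adjusted over 4 ratios). SCAP, the escort of the SREBPs, had the smallest difference of these genes, 65.9 ± 1.84 CPM against 80.1 ± 3.01 CPM (log2FC -0.28 ± 0.031).

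In the mevalonate pathway, 5 of 7 genes were called lower in EA.hy926 (43.3% of all genes), 1 higher (42.6% of all genes), and PMVK was not called. The summed level was 233 ± 9.97 CPM against 413 ± 4.72 CPM (SD, n = 5), 1.77 times higher in HMEC-1, and the median log2FC of -0.88 was the lowest of the role groups with more than 2 genes. ACAT2 (chr6:159762045-159779112, plus strand), the cytosolic thiolase that joins acetyl-CoA units at the entry of the pathway, was at 22.4, 26.0, 19.8, 23.5 and 22.2 CPM in EA.hy926 and at 70.1, 69.2, 69.2, 69.9 and 71.3 CPM in HMEC-1. Each HMEC-1 library was thus far above each EA.hy926 library, by 3.07 times on the means (log2FC -1.62 ± 0.046, edgeR adjusted p = 2.1e-18). HMGCS1 (chr5:43287470-43313512, minus strand), the synthase of the next step, was at 37.1, 40.7, 36.4, 36.4 and 34.3 CPM in EA.hy926 and at 74.1, 77.9, 78.0, 75.2 and 79.4 CPM in HMEC-1. The ranges lay far apart, and the log2FC of -1.06 ± 0.037 was just past the limit of 1, so that a test against that limit itself, glmTreat of edgeR, called the other 4 genes and not HMGCS1.

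Of the exonic bases of ACAT2, 22.2% also belong to exons of other genes, and of those of HMGCS1, 37.7% do. How reads in shared bases were counted is not given in the sources used here, which limits the levels of these genes.

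The later steps diverged. IDI1, the isomerase that makes the reactive isoprenoid unit, was at 46.0, 50.8, 43.9, 49.0 and 46.1 CPM in EA.hy926 and at 90.7, 89.7, 92.8, 91.1 and 96.5 CPM in HMEC-1. Again no library of one line reached those of the other, with a log2FC of -0.97 ± 0.036, just inside the limit. MVD, the decarboxylase before it, had 38.3 ± 1.87 CPM against 70.3 ± 2.04 CPM (log2FC -0.88 ± 0.035), and FDPS, the farnesyl diphosphate synthase after it, 31.1 ± 1.48 CPM against 50.5 ± 3.92 CPM (log2FC -0.70 ± 0.048).

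Between HMGCS1 and MVD lie the kinases, and these did not move with their neighbours. MVK, mevalonate kinase, was at 30.6, 35.3, 29.3, 33.1 and 32.7 CPM in EA.hy926 and at 27.7, 25.8, 26.9, 27.6 and 29.4 CPM in HMEC-1. The ranges overlapped slightly, and the log2FC was 0.23 ± 0.048 (edgeR adjusted p = 0.00016), a call that was lost at 0.09 with library totals. PMVK, phosphomevalonate kinase, was at 24.7 ± 2.36 CPM and 25.5 ± 1.45 CPM, a log2FC of -0.05 ± 0.057 (edgeR adjusted p = 0.45; -0.18 and called lower with library totals).

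**Figure D3:**
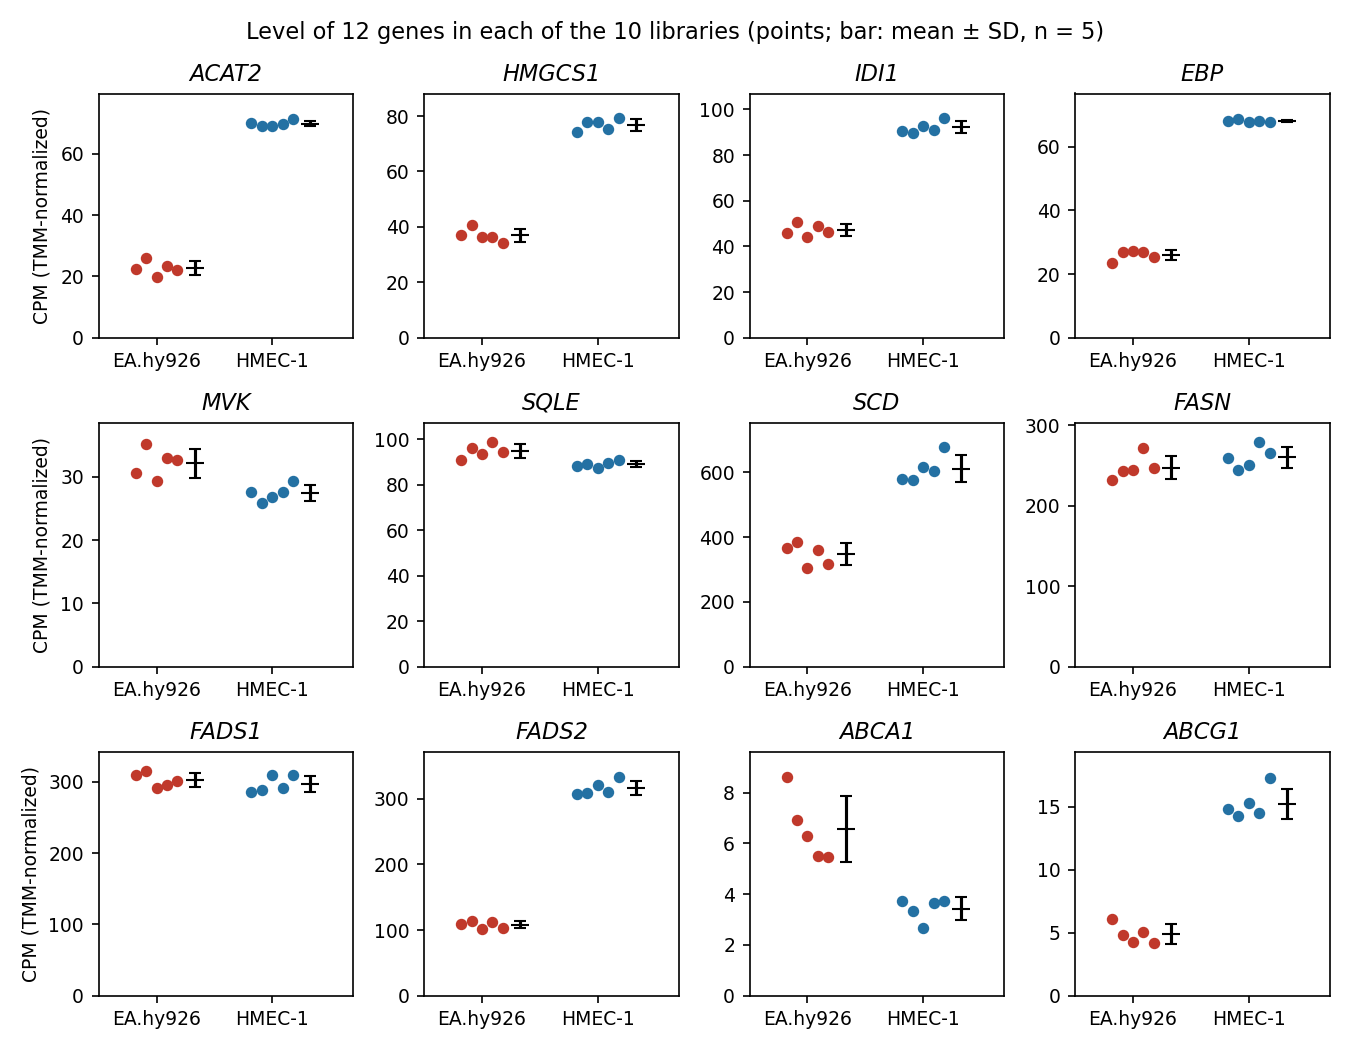
Level of 12 of the genes in each library (points, y axis in TMM-normalized CPM starting at 0, a separate scale for each gene) in EA.hy926 and HMEC-1, with the mean ± SD of the 5 libraries as a bar beside them. The lines are apart without overlap for ACAT2, HMGCS1, IDI1, EBP, SCD, FADS2, ABCA1, ABCG1 and, narrowly, SQLE, and overlap for MVK, FASN and FADS1.

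Among the 11 genes of the squalene and sterol steps, 7 were called lower in EA.hy926 (43.3% of all genes), 1 higher (42.6%), and 3 were not called. Their summed level was 626 ± 22.7 CPM against 787 ± 8.14 CPM (SD, n = 5), 1.26 times higher in HMEC-1. The first enzymes of these steps had small differences. FDFT1, squalene synthase, was at 209.9 ± 7.99 CPM and 205 ± 3.58 CPM (log2FC 0.03 ± 0.027, edgeR adjusted p = 0.26; -0.10 and called lower with library totals). SQLE, squalene epoxidase, a rate-limiting step of the pathway, was at 91.1, 96.4, 93.4, 98.9 and 94.5 CPM in EA.hy926 and at 88.5, 89.2, 87.3, 89.5 and 90.8 CPM in HMEC-1. The lowest EA.hy926 library stood just above the highest HMEC-1 library, and the log2FC of 0.09 ± 0.027 (edgeR adjusted p = 0.0039) turned to -0.04 without a call under library totals.

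EBP (chrX:48521799-48528716, plus strand), the sterol isomerase that shifts a double bond late in the pathway, differed most in this group. It was at 23.5, 27.0, 27.2, 27.0 and 25.4 CPM in EA.hy926 and at 68.0, 68.8, 67.9, 68.2 and 67.8 CPM in HMEC-1. The HMEC-1 libraries were nearly level and 2.62 times above EA.hy926 on the means, with a log2FC of -1.39 ± 0.037 (edgeR adjusted p = 5.3e-19). Exons of a gene model without a symbol cover 36.4% of its exonic bases.

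The other called genes of the group had smaller differences. LSS, which closes the sterol rings, was at 67.7 ± 5.57 CPM against 99.0 ± 2.52 CPM (log2FC -0.55 ± 0.042). MSMO1, a demethylase of the sterol nucleus, was at 75.2 ± 3.21 CPM against 113 ± 3.07 CPM (log2FC -0.58 ± 0.031). DHCR7, a late reductase, was at 63.1 ± 3.39 CPM against 96.3 ± 3.40 CPM (log2FC -0.61 ± 0.035).

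SC5D, the desaturase before DHCR7, had a log2FC of -0.69 ± 0.034, TM7SF2, a sterol reductase at a low level of 6.23 ± 0.649 CPM against 10.6 ± 0.681 CPM, one of -0.77 ± 0.073, and NSDHL, a demethylation enzyme, one of -0.22 ± 0.034. In each of these 6 genes the ranges of the lines were apart, as in 77.4% of all genes. HSD17B7, a ketosteroid reductase of the same demethylation, was at 15.9 ± 0.780 CPM and 15.7 ± 0.684 CPM (log2FC 0.01 ± 0.050, edgeR adjusted p = 0.81; -0.12 and called lower with library totals). CYP51A1, the lanosterol demethylase, was counted with only 75 to 143 reads per library, 2.71 ± 0.629 CPM against 2.81 ± 0.601 CPM. As 74.1% of its exonic bases are shared with other gene models, neither its level nor its log2FC of -0.05 ± 0.16 is read as that of the gene.

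STARD4, which carries cholesterol between membranes, was lower in every EA.hy926 library, at 167 ± 7.64 CPM against 218.5 ± 2.91 CPM (SD, n = 5; log2FC -0.39 ± 0.029, edgeR adjusted p = 4.3e-11).

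The fatty acid genes had the highest summed level of the role groups. Of these 7 genes, 4 were called lower in EA.hy926 (43.3% of all genes), none higher (42.6% of all genes), and 3 were not called. The summed level was 1527 ± 49.9 CPM against 2021 ± 72.0 CPM (SD, n = 5), 1.32 times higher in HMEC-1, with SCD and FADS2 making up most of the gap. The enzymes that build palmitate had small differences. ACLY, which makes cytosolic acetyl-CoA from citrate, was at 396 ± 8.06 CPM and 389.9 ± 7.11 CPM (log2FC 0.02 ± 0.024, edgeR adjusted p = 0.35; -0.11 and called lower with library totals). FASN, fatty acid synthase, was at 248 ± 14.6 CPM and 260.2 ± 13.2 CPM (log2FC -0.07 ± 0.038, edgeR adjusted p = 0.086; -0.21 and called lower with library totals). ACACA, which makes malonyl-CoA, was lower in EA.hy926 by a small step, at 118 ± 2.37 CPM against 138 ± 5.86 CPM (log2FC -0.23 ± 0.029).

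Of the enzymes that desaturate and elongate the chain, SCD (chr10:100347233-100364826, plus strand), which makes oleate from stearate, was at 366, 386, 305, 359 and 318 CPM in EA.hy926 and at 579.8, 575, 616, 603 and 679 CPM in HMEC-1. The highest EA.hy926 library was below the lowest HMEC-1 library by a wide margin, with a log2FC of -0.82 ± 0.053 (edgeR adjusted p = 4.9e-12). ELOVL6, which elongates palmitate, was low in both lines, at 7.11 ± 1.04 CPM and 8.85 ± 0.433 CPM, with overlapping ranges (log2FC -0.32 ± 0.083, edgeR adjusted p = 0.0013).

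FADS1 and FADS2 encode the delta-5 and delta-6 desaturases that act in turn on polyunsaturated fatty acids. They lie on opposite strands of chromosome 11, with FADS1 inside the annotated span of FADS2. FADS2 (chr11:61792980-61867354, plus strand) was at 109, 114, 102, 112 and 103 CPM in EA.hy926 and at 307, 309, 321, 310.3 and 333 CPM in HMEC-1. FADS1 (chr11:61799627-61829318, minus strand) was at 309.96, 316, 292, 295 and 301 CPM in EA.hy926 and at 286, 289, 310.1, 291 and 309 CPM in HMEC-1. FADS2 was thus 2.93 times higher in HMEC-1 with no overlap (log2FC -1.55 ± 0.033, edgeR adjusted p = 1.2e-20). The ranges of FADS1 overlapped almost fully (log2FC 0.03 ± 0.030, edgeR adjusted p = 0.38, and -0.11 and called lower with library totals).

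The ratio of FADS1 to FADS2 within a library does not depend on how the libraries are scaled. Per length, the log2 ratio of FADS1 to FADS2 was 1.55, 1.51, 1.56, 1.45 and 1.60 in the EA.hy926 libraries and -0.059, -0.053, -0.0050, -0.047 and -0.060 in the HMEC-1 libraries. With the exon lengths used, FADS1 was at 2.89 times the level of FADS2 in EA.hy926 and 0.969 times in HMEC-1. The difference of 1.58 between the lines does not depend on those lengths. It had a two-sided exact permutation p of 0.0079, the smallest possible here (0.0079 adjusted over 4 ratios). The RefSeq starts of FADS1 and FADS2 lie 599 and 800 bases apart, on opposite strands, and neither gene's window held a CCAAT box, SRE or E-box. Exons of the partner and of other genes cover 5.57% of FADS1 and 5.11% of FADS2. FADS3, the remaining gene of the cluster, named after its values were seen, was at 71.3 ± 8.71 CPM against 138 ± 2.94 CPM (log2FC -0.95 ± 0.055).

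The exporters ABCA1 and ABCG1 moved in opposite directions. ABCA1 (chr9:104781006-104928155, minus strand), which loads cholesterol onto lipid-poor apolipoprotein, was at 8.61, 6.93, 6.29, 5.52 and 5.44 CPM in EA.hy926 and at 3.74, 3.33, 2.67, 3.66 and 3.72 CPM in HMEC-1, from 123 to 318 counts per library. All EA.hy926 libraries were above all HMEC-1 libraries, by 1.92 times on the means (log2FC 0.94 ± 0.12, edgeR adjusted p = 3.8e-07; 0.81 with library totals). ABCG1 (chr21:42199689-42297244, plus strand), which passes cholesterol to mature lipoproteins, was at 6.09, 4.79, 4.24, 5.07 and 4.20 CPM in EA.hy926 and at 14.8, 14.2, 15.3, 14.5 and 17.3 CPM in HMEC-1. Here the HMEC-1 libraries were all above, by 3.11 times on the means (log2FC -1.64 ± 0.085, edgeR adjusted p = 8.5e-14), the most negative value of the 33 genes.

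Per length, the log2 ratio of ABCA1 to ABCG1 was -0.47 ± 0.18 in EA.hy926 and -3.05 ± 0.22 in HMEC-1 (SD, n = 5). With the exon lengths used, ABCG1 exceeded ABCA1 by 1.39 times in EA.hy926 and 8.26 times in HMEC-1. The difference of 2.57 was the largest of the 4 ratios, with no overlap between the lines (two-sided exact permutation p = 0.0079, the smallest possible, and 0.0079 adjusted over 4 ratios). The summed level of the exporters was low, at 11.4 ± 1.97 CPM and 18.6 ± 1.36 CPM.

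**Figure D4:**
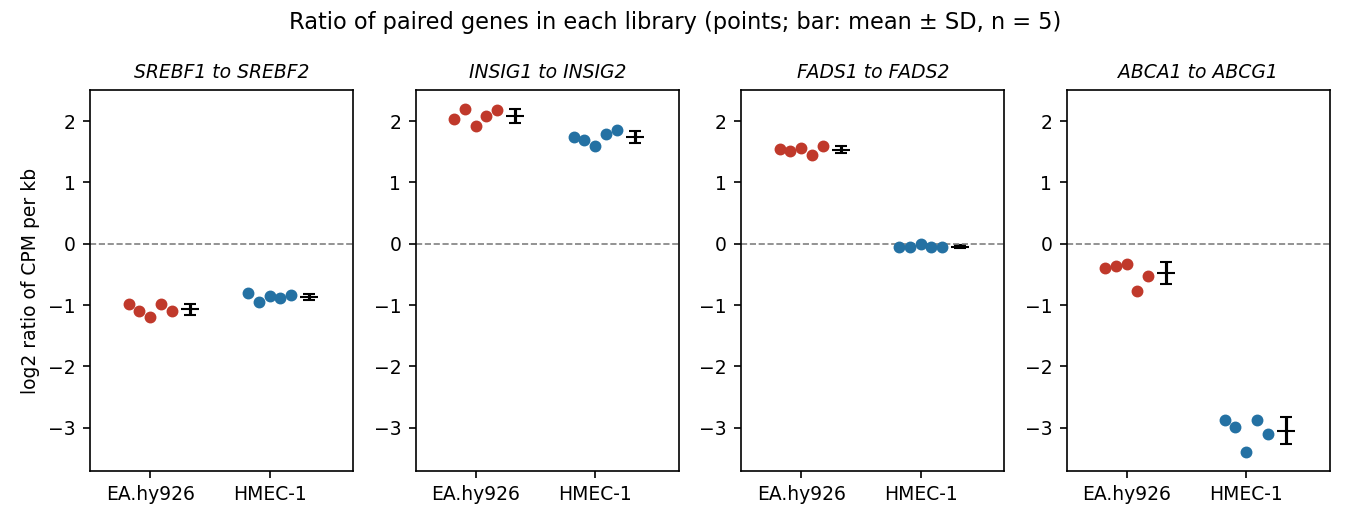
Log2 ratio of CPM per kb within 4 gene pairs in each library (points, y axis, the same scale in each panel), with the mean ± SD of the 5 libraries of EA.hy926 and HMEC-1 as a bar beside them and 0 as a dashed line. The lines do not overlap in any panel, and they are farthest apart for ABCA1 to ABCG1 (2.57) and FADS1 to FADS2 (1.58). Ratios of other gene pairs were not computed for comparison.

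The neighbouring genes of these pathways were counted as a background to the 33. Of 78 further genes listed by role, 70 were tested and 63 (90.0%) were called, near the 85.8% of all genes. Of the 70, 38 (54.3%) were called lower and 25 (35.7%) higher in EA.hy926, against 43.3% and 42.6% of all genes, and whether this differs from the 33 genes was not tested. Past both thresholds were 18 (25.7%), 10 lower and 8 higher, against 35.5% of all genes, and in 59 of 70 (84.3%) the ranges did not overlap, against 77.4% of all genes. The median log2FC of the 70 genes was -0.17.

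In SREBP processing and the sterol-regulated degradation that goes with it, 7 of 11 genes were called lower (43.3% of all genes) and 3 higher (42.6%) in EA.hy926. The only one past both thresholds was RNF145, a ubiquitin ligase, with 94.3 against 194 CPM (log2FC -1.04 ± 0.025). Those called higher were the site-1 and site-2 proteases that release SREBPs, MBTPS1 with 293 against 214 CPM (log2FC 0.46 ± 0.026) and MBTPS2 with 53.6 against 40.5 CPM (log2FC 0.40 ± 0.037), and PAQR3 (log2FC 0.10 ± 0.038; -0.04 with library totals). These 4 genes were named after their values were seen. Of 9 tested genes of the isoprenoid branch, which leaves the mevalonate pathway for protein prenylation, dolichol and ubiquinone, 5 were called lower and 4 higher. Over all genes, 43.3% and 42.6% were. None of the 9 passed both thresholds, against 35.5% of all genes.

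Of 16 tested genes of sterol uptake, storage and transport, 9 were called lower (43.3% of all genes) and 5 higher (42.6%) in EA.hy926. LIPA, the lysosomal lipase that frees cholesterol from its esters, was at 90.8 ± 3.47 CPM against 19.7 ± 1.44 CPM (log2FC 2.20 ± 0.042, edgeR adjusted p = 2.2e-21). GRAMD1C and GRAMD1B, members of a family that moves cholesterol from the plasma membrane to the endoplasmic reticulum, were also higher (log2FC 1.63 ± 0.052 and 1.10 ± 0.066). The 3 genes past both thresholds in the other direction, named after their values were seen, were SCARB1, a lipoprotein receptor, at 39.7 against 79.6 CPM (log2FC -1.004 ± 0.034), VLDLR, another, at 0 to 4 counts per library against 90 to 141, and CYP27A1, a sterol hydroxylase, at 0 to 7 counts against 70 to 106. Of the 7 liver X receptor and efflux genes, 4 were called lower (43.3% of all genes) and 2 higher (42.6%). Past both thresholds were ABCA7, a relative of ABCA1 (log2FC -1.17 ± 0.050), and ABCG4, a relative of ABCG1 named after its values were seen (1 to 5 counts against 48 to 79), both lower.

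Of 27 tested genes of fatty acid supply, elongation and activation, 13 (48.1%) were called lower and 11 (40.7%) higher in EA.hy926, near the shares of all genes given above. ACSL4, which activates polyunsaturated fatty acids for membrane lipids, was at 502 ± 6.04 CPM against 187 ± 2.28 CPM (log2FC 1.43 ± 0.022, edgeR adjusted p = 7.2e-23). ME1, a source of cytosolic NADPH, was at 46.7 ± 2.95 CPM against 13.3 ± 0.903 CPM (log2FC 1.81 ± 0.051). ACACB, the mitochondrial counterpart of ACACA, was at 10.2 ± 0.642 CPM against 1.41 ± 0.261 CPM (log2FC 2.85 ± 0.10).

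MID1IP1, an activator of acetyl-CoA carboxylase, and OXSM, of mitochondrial fatty acid synthesis, were higher as well (log2FC 1.53 ± 0.050 and 1.13 ± 0.046), and HACD1, a dehydratase of chain elongation, was lower, at 4.14 ± 0.623 CPM against 23.4 ± 0.901 CPM (log2FC -2.49 ± 0.073). ELOVL4, which makes very long chains and was named after its values were seen, had no count in EA.hy926 and was at least 5.88-fold higher in HMEC-1, measured against 3 counts per library. OLAH and HACD4, also named after their values were seen, were past both thresholds and lower in EA.hy926 at levels under 1 CPM in both lines.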

How the data were processed

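The 10 RNA-seq libraries, 5 of EA.hy926 and 5 of HMEC-1, all untreated, were grouped by the line and replicate number in the labels. The deposited values are raw read counts per gene that the authors made by aligning reads to GRCh38 with HISAT2. The paper's methods name HTSeq as the counter and the submitters' processing notes name featureCounts, and neither gives versions, the annotation release or the strand setting, so counts of genes with shared exons are uncertain. The paper's methods add a filter on low expression, normalization with DESeq2 and edgeR, and limma with the same thresholds used here.

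Identifiers were matched to GENCODE 44 (56434 of 60448), and exon overlaps on either strand were computed with bedtools 2.31.1. Genes were kept by filterByExpr (minimum count 10, minimum total count 15), scaled by TMM and tested in edgeR 4.0.16 (R 4.3.3) by the quasi-likelihood functions glmQLFit and glmQLFTest, without covariates. P-values were adjusted by Benjamini-Hochberg over the 16310 genes tested, and the test was checked on simulated counts. CPM are relative to the TMM-scaled library size, CPM per kb are divided by the union of exons, and the SE of a log2FC is its size over the square root of F. Within-pair log2 ratios, with a pseudocount of 0.5 counts, were compared by two-sided exact permutation (scipy 1.17.1) and adjusted over 4 ratios. Sums over role groups carry no test. Total counts of 33391640 to 43877224 per library set the counting precision, which covers counting error only.

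Motifs were searched in the 250 bases before RefSeq starts. Named were all 33 genes and, of 78 other pathway genes, at most the 10 with the largest absolute log2FC among those past both thresholds with at least 10 counts in every library, plus any gene at 3 counts or fewer throughout 1 line and 50 or more throughout the other, of which there were none. Outside this rule, RNF145, MBTPS1, MBTPS2, PAQR3, SCARB1, VLDLR, CYP27A1, ABCG4, FADS3, ELOVL4, OLAH and HACD4 were named after their values were seen. The genes and lists were chosen with earlier results of these data known. Alternatives were RLE factors, library totals, no filter, at least 10 counts in every library, a replicate block, DESeq2 1.42.0, limma-voom (limma 3.58.1), glmTreat, a pseudocount of 5 and leaving out each library. Replicates differed by more than sampling noise (chi-square of 3.01 to 7.46 per gene between libraries of a line).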

Additional observations from a re-analysis of the deposited data

Results flagged for a closer look

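Of 66 groups of 5 libraries, a line for each of the 33 genes, and 8 groups of gene-pair ratios, 2 held a library set apart from the others by Dixon's criterion, which flags about 5% of groups by chance. STARD4 was at 213 CPM in HMEC-1 replicate 4 and at 219 to 221 CPM in the other HMEC-1 libraries. The log2 ratio of FADS1 to FADS2 was -0.0050 in HMEC-1 replicate 3 and -0.060 to -0.047 in the others. In both cases the gap to the nearest library took up 0.773 of the range of the group, and the library stayed on its line's side of the other line.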

How the results depend on the processing

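The count of the 33 genes called was 26 with DESeq2, limma-voom, RLE factors, no filter or at least 10 counts in every library, 27 with the replicate block, 30 with library totals and 26 to 27 with any 1 library left out. The count past both thresholds was 5, with 4 under glmTreat, 7 under library totals (IDI1 and MVD added) and 5 to 6 with a library left out (ABCA1, at 1.01, without EA.hy926 replicate 4 or 5). Of the 70 other pathway genes, 18 passed both thresholds and 11 did with at least 10 counts required in every library, which leaves fewer genes tested, and then 3 were lower. Library totals turned the log2FC of FDFT1 to -0.10, SQLE to -0.043, HSD17B7 to -0.12, ACLY to -0.11 and FADS1 to -0.11, ended the call of MVK at 0.09, gave PMVK and FASN one at -0.18 and -0.21, and moved the log2 ratio of summed levels to -0.65 (sensing), -0.96 (mevalonate), -0.46 (squalene and sterol), -0.52 (STARD4), -0.54 (fatty acid) and -0.58 (all 33), as that scale moves all genes by -0.13. Without the filter HSD17B7 was at -0.0076, SQLE lost its call at 0.07 and FASN gained one at -0.09; the cause was not tested. FASN was also called, at -0.11 to -0.09, without EA.hy926 replicate 4, HMEC-1 replicate 2 or HMEC-1 replicate 3. With 1 library left out, CYP51A1 ranged from -0.17 to 0.032 and HSD17B7 from -0.026 to 0.047. No other gene of the 33 changed its direction or call. Same-numbered libraries did not deviate together (correlations of -0.023 to 0.039, against -0.046 to 0.047 for different numbers). The labels do not say whether same-numbered libraries were handled together, and these correlations cannot settle it. With the replicate block FASN was called, at -0.07, and no other of the 33 genes changed. The 4 paired ratio differences stayed at -0.20, 0.35, 1.58 and 2.57, but 5 pairs cannot give an exact p below 0.0625. Low counts limit ABCA1, ABCG1, ELOVL6 and CYP51A1 most.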
